A study of Mus musculus with 8 samples.

Results

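The genes of iron and copper handling were described in hippocampus of male 3 × Tg-AD mice, a strain used as a model of Alzheimer's disease pathology. Cp, Tfrc, Fth1, Ftl1, Slc40a1, Slc11a2, Aco1, Ireb2, Atp7a and Slc31a1 were taken by gene symbol, 10 genes, of which 9 were among the 18193 genes that had a probe set of their own on the array. The genes were chosen by their role around Cp, and Cp was selected on its log2 difference between the diets in these same arrays, so the differences of the members between the diets are given below as a description without a test. All mice of both groups carried human APP with the Swedish mutation, human tau with P301L and presenilin 1 with M146V. The control group received a purified diet and the RA group the same diet with 0.5% rosmarinic acid (RA), a polyphenol of rosemary and related herbs. Feeding lasted 8 months and the mice were 10 months of age. Each group had 4 Affymetrix arrays of the mouse genome type, called control 1 to 4 and RA 1 to 4 here. The methods name 4 mice of average weight per group and also pooled RNA, and whether an array held the RNA of 1 mouse was not settled, so that p-values measure only the spread between these arrays.

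Iron enters most cells bound to transferrin through the transferrin receptor, is stored in ferritin shells, and leaves through ferroportin, the only known cellular iron exporter. Ceruloplasmin is a copper-containing ferroxidase that oxidises the iron leaving through ferroportin, and thereby ties copper supply to iron export. In brain it is made by astrocytes, in a membrane-anchored form, and by cells of the choroid plexus and meninges. Iron-responsive RNA-binding proteins hold much of the control over ferritin and transferrin receptor at the level of the RNA and its translation.

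The values were log2 expression indices from FARMS, a summary that shrinks a probe set whose probes do not vary together to an almost constant value. A probe set was called measured where its SD over the 8 arrays was above 0.01, and an almost constant value is a property of this summary, not a measurement of equality between the diets. Of 45037 probe sets tested, 3758 were measured, or 8.34%. In the markers of hippocampal neurons, 10 of 12 genes were measured, Prox1 and Neurod6 among them.

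The members fell apart into 4 genes that the summarised values could follow and 6 that they could not. Cp had 5 measured probe sets of 8, Tfrc 1 of 6, Fth1 2 of 2 and Slc31a1 2 of 2. Slc40a1 (ferroportin), Slc11a2 (the divalent metal transporter DMT1), Aco1 and Ireb2 (the iron-responsive RNA-binding proteins) and Atp7a (a copper-exporting ATPase) had none. Ftl1, the ferritin light chain, had no probe set of its own, since its 3 probe sets name other genes as well. In all, 10 of 27 member probe sets that entered the tests were measured, and 3 further Tfrc probe sets were manufacturer's controls that were left out of the tests. At the SD threshold, the member just inside was Tfrc 1452661_at with an SD of 0.108 and the one just outside was Cp 1448734_at with 0.00306.

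**Figure D1:**
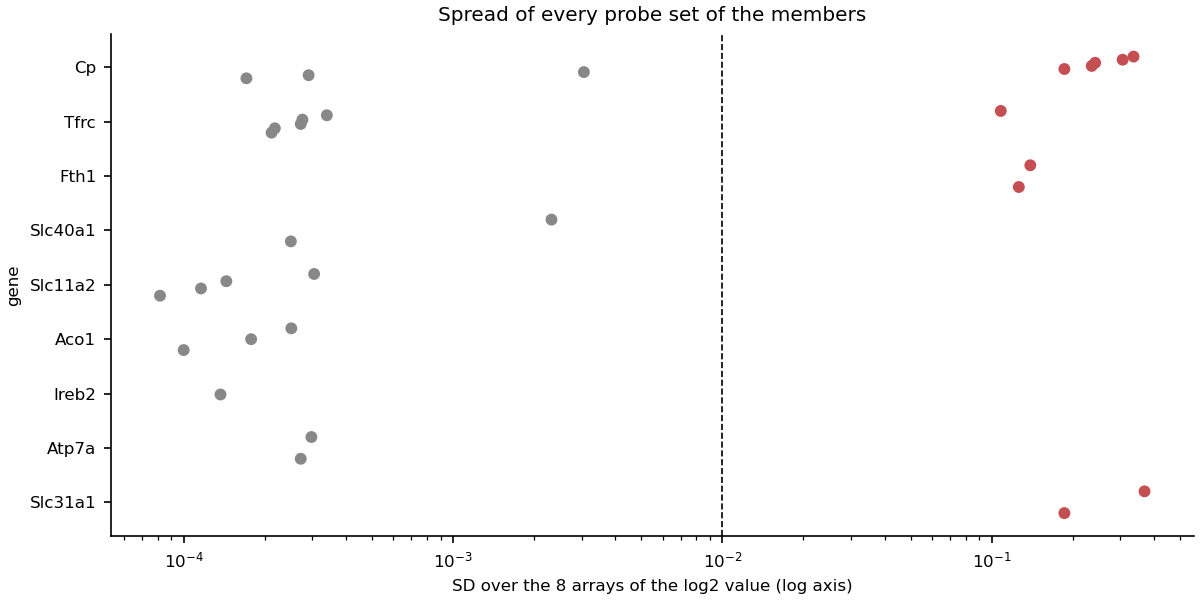
SD over the 8 arrays of every member probe set, on a log axis, with the threshold of 0.01 as a line. The 10 measured probe sets belong to Cp, Tfrc, Fth1 and Slc31a1, and no member lies between 0.00306 and 0.108.

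Promoter windows from RefSeq, running from 250 bases before to 50 bases after a transcription start on GRCm38.p6, were given for 8 of the 10 members, 11 windows in all. The windows of the 3 members with more than 1 measured probe set are printed 5′ to 3′ on the plus strand, since the values rest mainly on these genes. Where a gene had several windows, the one with the more downstream start is printed. Capitals mark matches to the motifs searched on both strands, which were the TATA box (TATAAA), the core of the hypoxia response element (ACGTG, and also the form GCGTG), the core of the metal response element (TGCACNC, and also the form TGCGCNC) and the core of the antioxidant response element (TGACNNNGC).
Cp, chr3:19956999-19957298: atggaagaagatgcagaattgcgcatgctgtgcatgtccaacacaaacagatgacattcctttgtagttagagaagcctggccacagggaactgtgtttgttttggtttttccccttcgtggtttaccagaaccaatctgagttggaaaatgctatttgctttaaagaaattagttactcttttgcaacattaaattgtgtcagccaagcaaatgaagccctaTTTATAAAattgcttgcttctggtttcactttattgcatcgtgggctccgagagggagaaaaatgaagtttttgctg
Fth1, chr19:9982396-9982695: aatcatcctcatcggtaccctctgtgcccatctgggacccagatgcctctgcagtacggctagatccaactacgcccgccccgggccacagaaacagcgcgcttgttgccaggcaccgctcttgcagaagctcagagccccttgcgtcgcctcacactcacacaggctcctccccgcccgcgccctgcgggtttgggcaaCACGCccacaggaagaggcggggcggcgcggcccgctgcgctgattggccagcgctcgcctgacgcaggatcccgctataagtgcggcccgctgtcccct
Slc31a1, chr4:62360451-62360750: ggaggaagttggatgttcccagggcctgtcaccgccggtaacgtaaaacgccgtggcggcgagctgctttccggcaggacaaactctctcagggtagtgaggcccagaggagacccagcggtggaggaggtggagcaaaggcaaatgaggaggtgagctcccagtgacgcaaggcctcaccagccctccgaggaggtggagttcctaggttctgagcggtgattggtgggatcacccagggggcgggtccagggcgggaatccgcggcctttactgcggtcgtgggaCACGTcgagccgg
In the Cp window, TATAAA lay at position -25 from the start and overlapped a match on the opposite strand at position -27, and the letters of the other motifs were not in this window. The other Cp window, whose first base is chr3:19956804, held none of the letters searched. The printed Fth1 window held 1 hypoxia core at position -50, and the Slc31a1 window held 1 at position 38 after the start. The other Fth1 window, whose first base is chr19:9980350, held the TATA box letters on the opposite strand at position -124. Over all 32851 windows of 300 bases, 13.6% held the TATA box letters, 43.8% a hypoxia core, 25.7% a metal core and 12.4% an antioxidant core. A match is a string of letters and not a site.

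Cp was higher in the RA group on all 5 of its measured probe sets, by 1.18-fold to 1.39-fold, and RA 2 was the highest array on each. The sign alone was not particular to Cp, since 73.1% of all measured probe sets averaged more under RA than under the control diet. Their log2 differences had a median of 0.0694. Array medians were at most 5.831 in the controls and at least 5.833 in the RA arrays. After array medians were subtracted, the Cp differences were 0.24 to 0.47, but medians this close together can hardly move a difference. The subtraction is therefore no check on the general shift of the measured probe sets. In bulk tissue, fewer cells of a type and less RNA per cell cannot be told apart, and this holds for every value below. On Cp 1417494_a_at the log2 values were 6.01, 6.15, 5.94 and 5.99 in control 1 to 4 and 6.43, 6.95, 6.20 and 6.41 in RA 1 to 4. The groups did not overlap there, with RA 2 far above and RA 3 just above the controls. The means were 6.02 ± 0.0903 (SD, n = 4) and 6.50 ± 0.32 (SD, n = 4), a log2 difference of 0.48 with a standard error (SE) of 0.159.

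The other 4 measured Cp probe sets gave smaller differences of the same sign. Cp 1417495_x_at read 6.13, 6.09, 6.06 and 6.09 in control 1 to 4 and 6.34, 6.76, 6.26 and 6.37 in RA 1 to 4, a log2 difference of 0.34 (SE 0.109). These controls were the tightest of the 5 probe sets, with an SD of 0.0294, and all lay below all RA arrays. The suffix x marks a probe set with probes that may bind other transcripts. Cp 1417496_at read 5.81, 5.90, 5.75 and 6.03 in control 1 to 4 and 6.17, 6.66, 5.81 and 6.24 in RA 1 to 4, a log2 difference of 0.35 (SE 0.177). Here the groups overlapped, since RA 3 lay below control 4 and control 2. Cp 1455393_at read 5.56, 5.55, 5.39 and 5.38 in control 1 to 4 and 5.66, 6.16, 5.58 and 5.67 in RA 1 to 4, a log2 difference of 0.30 (SE 0.133). Cp 1448735_at read 5.78, 5.67, 5.65 and 5.73 in control 1 to 4 and 5.85, 6.23, 5.80 and 5.93 in RA 1 to 4, a log2 difference of 0.24 (SE 0.0966). On both, the groups were apart but RA 3 lay only just above the highest control. Over all measured probe sets, the RA arrays lay wholly above the controls in 2.71% and wholly below them in 2.87%.

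**Figure D2:**
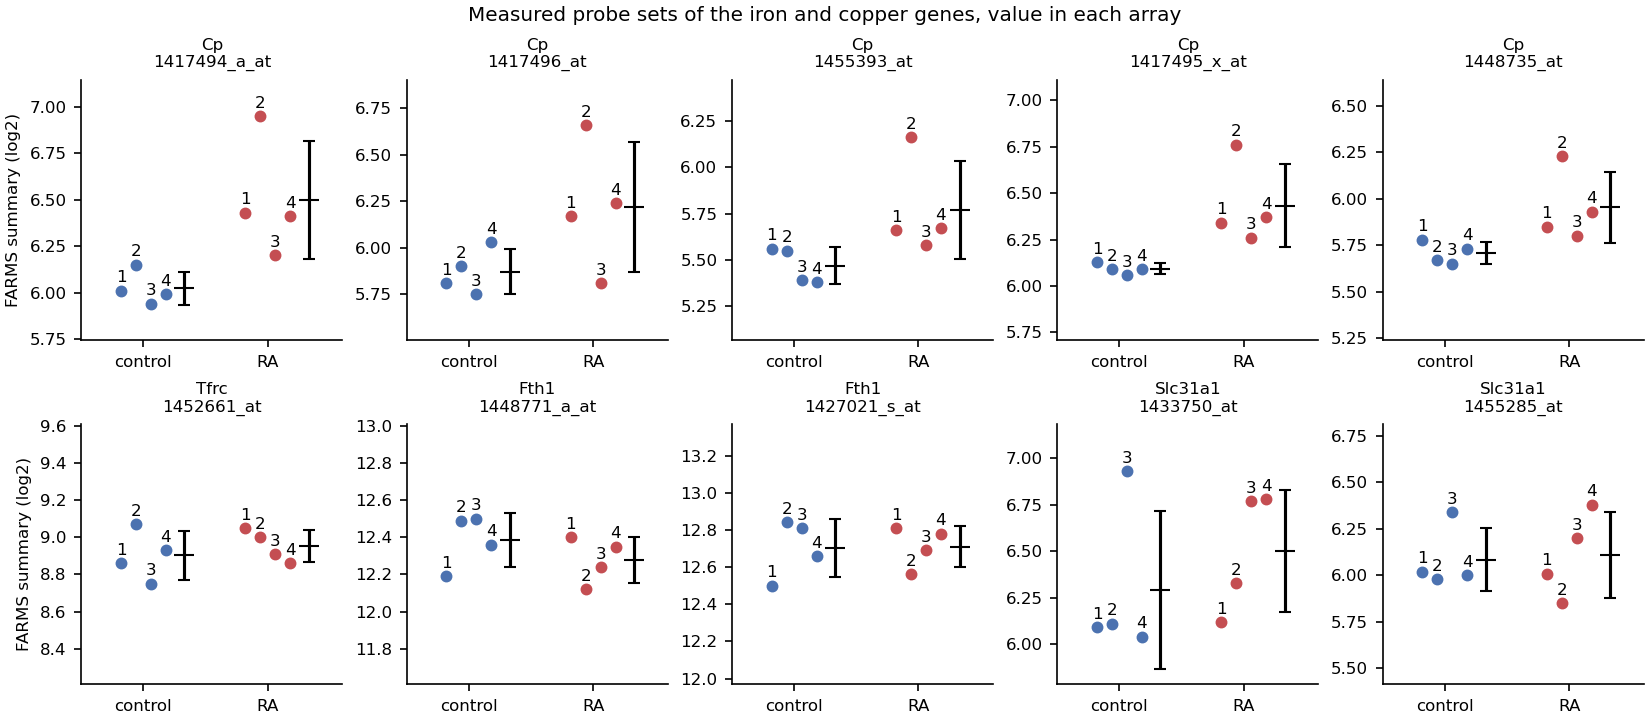
Log2 expression index of the 10 measured member probe sets, with 1 point per array (4 control, 4 RA) and the group mean ± SD. RA 2 is the highest array on all 5 Cp probe sets, while control 3 is the highest on Slc31a1 1433750_at at 6.93.

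The measured Cp probe sets moved together over the 8 arrays, with pairwise r from 0.87 to 0.98 over 10 pairs. They detect transcripts of 1 gene in the same RNA and are not replicates of each other. Averaged over them, RA 2 lay 0.72 above the control mean on the log2 scale, RA 4 lay 0.29, RA 1 lay 0.26 and RA 3 lay 0.10 above it. The controls lay between -0.08 and 0.04. The remaining 3 Cp probe sets were not measured, with SDs from 0.000171 to 0.00306, and nothing is read from the order of their arrays.

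The rank product, the method the study used, ranks differences between single arrays and calls a probe set at an estimated false discovery rate under 0.05. It called all 5 measured Cp probe sets and Slc31a1 1433750_at higher in the RA group, 6 of 27 member probe sets, and none lower. Over all probe sets 0.917% were called higher and 0.577% lower, and among measured ones 11% and 6.92%. Since the differences of these members between the diets were known when they were chosen, nothing is read from this count. When only the measured probe sets were ranked, 4 of 3758, or 0.106%, were called higher and none of the members was. Without RA 2, the log2 differences of the 5 Cp probe sets were 0.15 to 0.33 and none was called, beside 0.091% of all probe sets. Without RA 1 they were 0.28 to 0.50 and none was called either, beside 0.0822% of all probe sets. Without RA 3, 2 of the Cp probe sets were called, and without RA 4, 1 was called, in both cases beside 0.0822%. Leaving out any control array kept all 5 calls, beside 2.15% of all probe sets without control 1, 0.431% without control 2, 0.959% without control 3 and 1.06% without control 4. The limma test called 0% of the probe sets of the array at an adjusted p under 0.05, while 4553 of 45037 had an unadjusted p under 0.05, 363 of them measured.

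**Figure D3:**
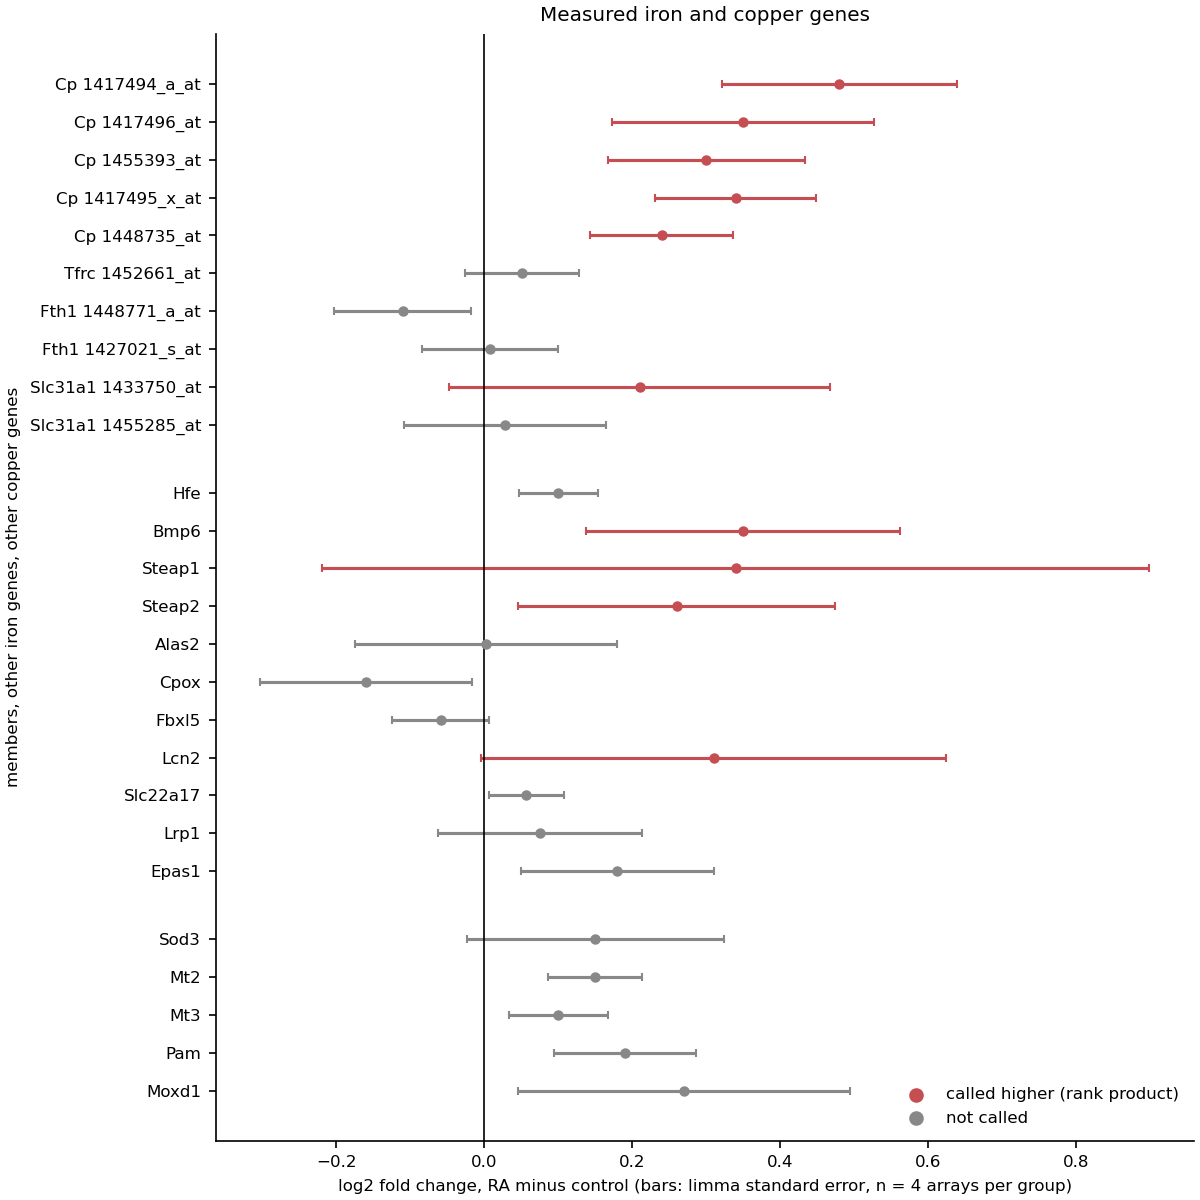
Log2 difference (RA minus control) of measured probe sets of the members and of the other iron and copper genes, with SE bars from 4 arrays per group. The 5 Cp probe sets lie between 0.24 and 0.48, and the 2 Fth1 probe sets at -0.11 and 0.0077.

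Tfrc, the transferrin receptor that brings iron into the cell, differed between the groups by less than its SE. On 1452661_at the log2 values were 8.86, 9.07, 8.75 and 8.93 in control 1 to 4 and 9.05, 9.00, 8.91 and 8.86 in RA 1 to 4. The arrays of both groups were interleaved, with the highest and the lowest both controls. The log2 difference was 0.051 (SE 0.0765), and it ran from -0.00043 to 0.11 when each array was left out in turn.

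Fth1, the ferritin heavy chain that stores iron in oxidised form, had 2 probe sets whose groups overlapped widely and whose small differences had opposite signs, the positive one turning negative under quantile normalization. On 1448771_a_at the log2 values were 12.19, 12.49, 12.50 and 12.36 in control 1 to 4 and 12.40, 12.12, 12.24 and 12.35 in RA 1 to 4, a log2 difference of -0.11 (SE 0.0927). On 1427021_s_at they were 12.50, 12.84, 12.81 and 12.66 in control 1 to 4 and 12.81, 12.56, 12.69 and 12.78 in RA 1 to 4, a log2 difference of 0.0077 (SE 0.0925). Both probe sets had control 1 and RA 2 as their lowest arrays and agreed over the 8 arrays with r = 0.88. The suffix s marks a probe set that matches transcripts of more than 1 gene, and ferritin has near-identical copies in the genome, so this probe set is uncertain as a reading of Fth1.

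Slc31a1, the copper importer CTR1, followed neither Cp nor the diet alone. On 1433750_at the log2 values were 6.09, 6.11, 6.93 and 6.04 in control 1 to 4 and 6.12, 6.33, 6.77 and 6.78 in RA 1 to 4. Control 3, RA 3 and RA 4 stood above the other 5 arrays, and the groups overlapped over most of their range. The log2 difference was 0.21 (SE 0.258), and it was 0.42 without control 3 and 0.11 without RA 4, the highest and the lowest of the values with 1 array left out. It was 0.12 without control 4 and 0.12 without RA 3. The call of this probe set was kept when control 3 was left out and lost when any other array was. On 1455285_at the log2 values were 6.02, 5.98, 6.34 and 6.00 in control 1 to 4 and 6.01, 5.85, 6.20 and 6.38 in RA 1 to 4, a log2 difference of 0.028 (SE 0.136). The same 3 arrays were the high ones, and r between the 2 probe sets was 0.84.

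For the 5 members without a measured probe set, the values can be given only as levels that hardly moved. Slc40a1 lay at 6.07 to 6.28 with SDs from 0.00025 to 0.00232, Slc11a2 at 5.41 to 6.25 with SDs from 8.17e-05 to 0.000305, and Aco1 at 5.47 to 7.26 with SDs from 0.0001 to 0.000251. Ireb2 lay at 7.84 with an SD of 0.000136, and the 2 Atp7a probe sets at 5.83 and 6.14 with SDs of 0.000272 and 0.000298. Whether iron export, uptake by DMT1 or the iron-responsive RNA-binding proteins differed at the RNA level between the diets could not be read from these summarised values.

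Cp, Slc31a1 and Fth1 showed 3 different patterns over the arrays, each alongside a different set of cell type markers. Cp was highest in RA 2, where markers of meningeal fibroblasts were also highest, at 0.65 above their mean over the 8 arrays. Of 13 measured meningeal markers 10 were highest in RA 2. Dcn was highest in control 1 at 10.19 and Lum in RA 4 at 6.64. Igf2 read 8.78 in both control 3 and RA 4, and 8.74 in RA 2. The mean of the 13 lay between -0.24 and 0.04 in the controls. That mean was -0.24 in RA 1, 0.10 in RA 3 and 0.06 in RA 4. Slc6a20a, a transporter of meningeal cells, read 7.24, 6.69, 6.50 and 6.96 in control 1 to 4 and 6.62, 8.13, 7.08 and 7.00 in RA 1 to 4. Aldh1a2, the retinoic acid-making enzyme of the meninges, read 6.77, 6.11, 5.66 and 6.32 in control 1 to 4 and 6.31, 7.40, 6.52 and 6.24 in RA 1 to 4. Both were highest in RA 2, but unlike Cp they were lower in RA 1 than in control 1. Of the 13 measured meningeal markers 7 were called higher and none lower, beside 11% and 6.92% of all measured probe sets.

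Markers of endothelial cells, which line blood vessels, were also highest in RA 2, at 0.42 above their mean, but only 2 of 10 were measured. Both of these were highest in RA 2, and Flt1, a receptor for a vascular growth factor, was called higher with a log2 difference of 0.14. Astrocyte markers had RA 2 as their highest array on average as well, at 0.10 above their mean. Of the 8 measured, 6 were highest in RA 2, while Gfap was lowest there at 7.45. These 8 were out of 11 on the array, and 2 of them were called higher, beside 11% of all measured probe sets. The called ones were the glutamate transporter gene Slc1a3 with a log2 difference of 0.22 and the folate enzyme gene Aldh1l1 with 0.23. The part that meninges, vessels or astrocytes in the dissected tissue had in the Cp values was not tested.

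Slc31a1 was high in control 3, RA 3 and RA 4, the 3 arrays in which the choroid plexus markers were highest. All 18 choroid plexus markers on the array were measured and called higher by the rank product. The share called higher was 11% among all measured probe sets and 1.35% over all genes, measured or not. Yet a control had the highest mean of the list, and limma adjusted p-values of the markers ran from 0.617 to 0.905. Their mean deviations were 1.41 in control 3, 0.74 in RA 3 and 1.18 in RA 4 against -0.84 to -0.16 in the other arrays. Ttr, the transthyretin gene and the defining transcript of the choroid plexus, read 8.54, 8.57, 13.39 and 8.90 in control 1 to 4 and 12.05, 7.67, 13.12 and 13.26 in RA 1 to 4, a log2 difference of 1.68 (SE 1.7). Ttr was thus lowest in RA 2, the array in which Cp was highest, while Slc13a4 of the same list was highest there at 7.93. Folr1, a folate receptor of the same epithelium, read 7.99 in control 3, 7.18 in RA 3 and 7.92 in RA 4, and no more than 5.97 elsewhere. The part of choroid plexus tissue in the Slc31a1 values was not tested.

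Fth1 had control 1 and RA 2 as its lowest arrays, and so did the oligodendrocyte markers, at -0.68 and -0.83 from their mean. All 11 on the array were measured, 1 was called lower and none higher, beside 6.92% and 11% of all measured probe sets. Oligodendrocytes are the cells of brain richest in ferritin and iron. The mean of the neuronal markers had the same 2 lowest arrays, at -0.16 in control 1 and -0.32 in RA 2. Single markers differed: Neurod6 and Prox1 were lowest in these 2 arrays, while Wfs1 and C1ql2 were highest in control 1, at 9.21 and 6.96. Of the 10 measured neuronal markers 2 were called lower and none higher, beside the same shares of 6.92% and 11%. The called ones were the transcription factor gene Neurod6 with a log2 difference of -0.30 and the synaptic gene Snap25 with -0.21. The part of either cell type in the Fth1 values was not tested. Of the blood markers 2 of 5 were measured, and Hbb-b2, a haemoglobin chain, was highest in control 2 at 6.99 and lowest in control 1 at 5.74.

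**Figure D4:**
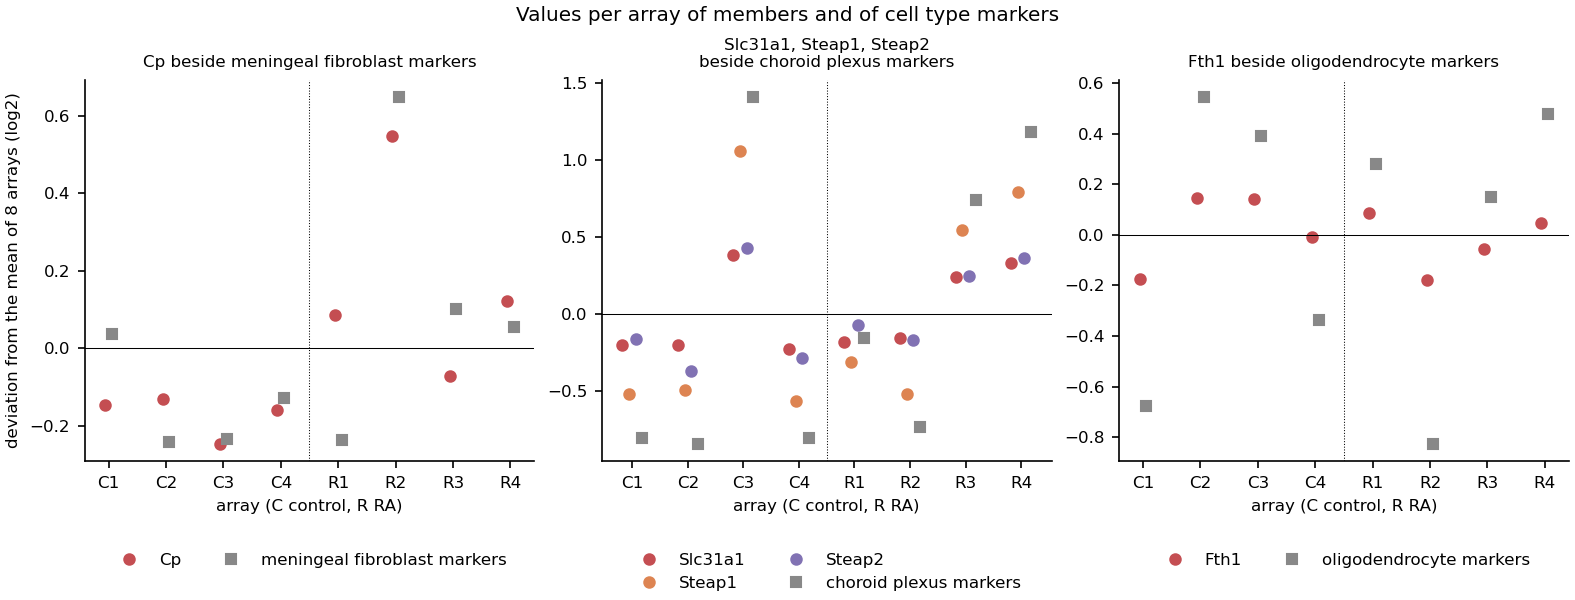
Deviation from the mean of the 8 arrays (log2) of members and related genes (circles, mean of their measured probe sets) and of cell type marker lists (squares, mean of their measured genes). Cp and the meningeal markers share RA 2 as the highest array, Slc31a1, Steap1 and Steap2 share control 3, RA 3 and RA 4 with the choroid plexus markers, and Fth1 shares its 2 lowest arrays, control 1 and RA 2, with the oligodendrocyte markers.

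The genes most like Cp were all highest in RA 2 as well. Among 2495 measured genes, each taken on its probe set with the highest r and ranked by Pearson's r with Cp 1417494_a_at over the 8 arrays, the first 10 were Cyp1b1 (0.93), Rbms3 (0.92), Ifitm2 (0.92), Tgm2 (0.91), Lhfp (0.91), Adgrf5 (0.90), Slc1a3 (0.90), Klf2 (0.89), Selenop (0.89) and Serping1 (0.89). The points share their arrays, and RA 2 was the highest array for Cp and for each of these 10. Without RA 2, an alternative added after the data were seen, none of these 10 was among the first 10. This is a change of rank, and no other array was left out of this ranking. How far each r depends on RA 2 was not tested. The r with Cp was 0.71 for Slc6a20a and 0.70 for Aldh1a2 of the meningeal list. In the choroid plexus list it was -0.18 for Ttr but 0.55 for Slc13a4. Among the members it was 0.47 for Tfrc, -0.18 for Fth1 and -0.03 for Slc31a1.

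Of 60 other genes of iron handling (uptake, storage, the hepcidin pathway, heme and iron-sulfur cluster synthesis), 55 were on the array and 11 were measured on the probe set that stands for the gene. The rank product called 4 of the 55 higher, or 7.27%, against 1.35% of all genes taken with 1 probe set each, and none lower, against 0.511%. The limma test called none. An unadjusted p under 0.05 was found in 4 of the 55, or 7.27%, beside 10.8% of all genes, and none of those 4 was measured. The median log2 difference of the 55 was 9.29e-05, beside 3.94e-05 over all genes. Among the measured it was 0.0989 beside 0.0765.

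The 4 called iron genes followed 3 different sets of arrays. Bmp6, a ligand that raises hepcidin, read 6.39, 6.24, 6.66 and 6.23 in control 1 to 4 and 6.32, 7.25, 6.55 and 6.81 in RA 1 to 4, a log2 difference of 0.35 (SE 0.212, limma adjusted p = 0.613). It was highest in RA 2, as Cp was, its r with Cp was 0.75, and with 1 array left out the difference ran from 0.18 to 0.49. Lcn2, which binds iron-carrying siderophores, read 5.76, 6.24, 5.62 and 5.73 in control 1 to 4 and 6.99, 6.13, 5.73 and 5.73 in RA 1 to 4, a log2 difference of 0.31 (SE 0.314, limma adjusted p = 0.769). RA 1 was far above the other arrays, and with 1 array left out the difference ran from 0.024 to 0.45.

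Steap1 and Steap2 belong to a family of membrane reductases for iron and copper. Steap1 1451532_s_at read 5.40, 5.42, 7.16 and 5.30 in control 1 to 4 and 5.73, 5.36, 6.56 and 6.98 in RA 1 to 4, a log2 difference of 0.34 (SE 0.559, limma adjusted p = 0.863). Steap2 1442359_at read 6.13, 5.92, 6.61 and 5.94 in control 1 to 4 and 6.27, 6.05, 6.62 and 6.72 in RA 1 to 4, a log2 difference of 0.26 (SE 0.214, limma adjusted p = 0.703). Both were high in control 3, RA 3 and RA 4, like Slc31a1 and the choroid plexus markers, and the part of that tissue was not tested. Other measured probe sets of these genes gave smaller differences. They were 0.17 (SE 0.42) on Steap1 1424938_at, 0.20 (SE 0.216) on Steap2 1428636_at and 0.11 (SE 0.213) on Steap2 1438773_at, the last not called. Steap1 1451532_s_at also has the suffix s, so it may match transcripts of more than 1 gene. With 1 array left out, the difference ran from 0.064 to 0.79 for Steap1 1451532_s_at and from 0.16 to 0.42 for Steap2 1442359_at. The calls of Bmp6 and Steap1 were kept in 3 of 8 such cases and those of Lcn2 and Steap2 in 2 of 8.

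Of 27 other genes of copper handling, 26 were on the array, 5 were measured and none was called by the rank product in either direction. The limma test called none of the 26 either, while 6, or 23.1%, had an unadjusted p under 0.05 beside 10.8% of all genes. Of these 6, 1 was measured. Moxd1, a relative of the copper enzyme that makes noradrenaline, read 6.92, 6.24, 6.19 and 6.74 in control 1 to 4 and 6.63, 7.20, 6.79 and 6.54 in RA 1 to 4, a log2 difference of 0.27 (SE 0.224, limma adjusted p = 0.711). Sod3, the extracellular superoxide dismutase, read 5.92, 5.88, 6.62 and 5.96 in control 1 to 4 and 6.13, 6.22, 6.32 and 6.32 in RA 1 to 4, a log2 difference of 0.15 (SE 0.174, limma adjusted p = 0.79). Moxd1 was highest in RA 2 and Sod3 in control 3, and with 1 array left out the differences ran from 0.13 to 0.40 and from 0.082 to 0.33. Pam, the copper-dependent enzyme that amidates peptides, read 7.80, 7.68, 7.43 and 7.82 in control 1 to 4 and 7.78, 7.86, 7.99 and 7.85 in RA 1 to 4, a log2 difference of 0.19 (SE 0.0957, limma adjusted p = 0.553) that ran from 0.10 to 0.23. The metallothionein genes Mt2 and Mt3, named after their values were seen, completed the measured 5 with log2 differences of 0.15 (SE 0.0632, limma adjusted p = 0.491) and 0.10 (SE 0.0668, limma adjusted p = 0.639).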

How the data were processed

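Total RNA of hippocampus from 4 control and 4 RA samples was hybridised to Affymetrix arrays of the mouse genome type. The authors summarised the scanner files with FARMS in R and deposited log2 values per probe set; any scaling between arrays was not given in the sources used here. The deposited values were used unchanged. Arrays give no read depth, and their number limits the precision.

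Groups were taken from the sample titles. Of 45101 probe sets, 64 manufacturer's controls were left out. Platform symbols were updated through gene numbers, and 34945 probe sets named 1 gene, 932 several and 9160 none. A gene outside the members was represented by its probe set of highest mean, and a cell type marker by its measured probe set of highest mean. The rank product (100 permutations, threshold 0.05) followed the study's method and was rewritten here. The limma test (limma 3.58.1, R 4.3.3) with Benjamini-Hochberg adjustment ran on all 45037 probe sets. Named were every member, per list up to 5 called genes or else the 3 with the largest SD, the 10 genes most like Cp, and defining cell type markers. The members and all lists were chosen with earlier results of these data known. Alternatives were other filters, scalings and tests, a replicate block and leaving out each array.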

Additional observations from a re-analysis of the deposited data

Results flagged for a closer look

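In 10 of 64 groups of 4 arrays tested, 1 array lay far from the other 3, by a gap, taken as a share of the group's range, above Dixon's critical value for 4 samples. Chance gives this in about 1 in 20 groups, and probe sets of 1 gene share their arrays. Control 3 was the highest of the controls, apart from the rest, for Slc31a1 1433750_at (6.93, gap 0.919 of the range), Slc31a1 1455285_at (6.34, 0.902), Steap1 1424938_at (6.38, 0.973), Steap1 1451532_s_at (7.16, 0.938), Steap2 1438773_at (6.41, 0.858), Scara5 1451204_at (5.49, 0.937), a ferritin receptor gene, and Sod3 1417633_at (6.62, 0.882). RA 2 was the highest of the RA arrays for Cp 1455393_at (6.16, 0.845) and for Epas1 1435436_at (9.86, 0.832), a hypoxia-inducible factor gene. RA 1 was the lowest of the RA arrays for Slc22a17 1448209_a_at (9.97, 0.907), a receptor gene for lipocalin 2. Scara5, Epas1 and Slc22a17 are named here for this gap alone.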

How the results depend on the processing

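The 10 measured member differences moved by less than 1 SD between arrays in all 100 alternative values from other scalings and left-out arrays, although Tfrc, Fth1 1427021_s_at and Slc31a1 1455285_at, which lay near 0, took the opposite sign in some. Subtracting array medians could hardly move these differences, since the medians were nearly equal. The counts of calls did change. Called higher over all probe sets were 413, and 51 with only probe sets above the median level, 4 with only measured ones, 62 with the replicate block and 0 with limma (37 to 968 leaving out 1 array, with 968 without control 1, 194 without control 2 and 37 to 41 without 1 of the RA arrays). Called lower were 260, and 17 with only measured probe sets and 0 with limma (136 to 313, with 136, 148 and 170 without control 2, 3 and 4). Member probe sets called higher were 6, and 1, 0, 3 and 0 under the same settings (0 to 6 leaving out 1 array). Other iron genes called higher were 4, and 0 in each of the same settings (0 to 4, with 1 each without control 2, control 4 and RA 2 and 0 without RA 1, 3 or 4). Other copper genes called higher were 0, and 3, 1 and 2 without control 1, 3 and 4. The limma calls were 0, and 28543 after quantile normalization and 41443 after subtracting array medians, since both move almost constant values (0 to 1 leaving out 1 array, RA 4). Of the 10 genes most like Cp, 1 remained with Spearman's rho, 2 with deviations from the group means, 5 with another Cp probe set and 0 without RA 2. Replicate numbers did not pair the samples: same-numbered arrays correlated in their deviations at -0.12, -0.33, 0.45 and -0.39, and no array correlated best with its own number.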
